A study of Mus musculus with 10 samples.

Results

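The genes described here are the amino acid transporters of the solute carrier families SLC1, SLC6, SLC7, SLC36, SLC38 and SLC43, with Slc3a2, the heavy chain that carries several SLC7 transporters to the cell surface. They were chosen by gene symbol, leaving out Slc7a11. By symbol, 122 of the 45101 probe sets on the array belonged to them, and 86 of these exceeded the 40th percentile of signals on at least 2 arrays. The 86 probe sets stood for 45 of 61 genes, out of 14840 genes tested in all. One of the 45, Slc7a6os, is an opposite-strand neighbour and not a transporter, so that 44 of 58 transporter genes were tested. Some SLC6 members carry other substrates, such as serotonin, noradrenaline, taurine and creatine.

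The 10 arrays held RNA of 5 mouse lines grown from mammary tumours, with a pair of arrays per line. E is epithelial and was started from a mammary adenocarcinoma that arose spontaneously in a female FVB/N-TgN(MMTVneu)202Mul mouse, in which the MMTV promoter drives the neu oncogene in mammary cells. M1, M2, M3 and M4 are mesenchymal and were each started from a relapsed tumour that followed injection of E into FVB/N females, so that all 4 derive from E. Cells were grown in RPMI with 10% serum to 80% confluence. Only 1 epithelial line was measured. The mice's ages, and whether the paired arrays of a line were separate cultures, were not given in the sources used here, so p-values cover only the spread between these arrays, which may be technical.

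Amino acids cross the plasma membrane through transporters that differ in substrate and in driving force. Sodium-coupled carriers such as the SLC38 family load cells with small neutral amino acids, and exchangers such as the pair of Slc7a5 and Slc3a2 trade internal glutamine for leucine and other large neutral amino acids. Leucine, arginine and glutamine taken up in this way feed protein synthesis and the nutrient kinase complex mTORC1. When an amino acid runs short, uncharged tRNA activates the kinase GCN2, the transcription factor ATF4 is translated, and ATF4 raises the genes of many transporters, aminoacyl-tRNA synthetases and biosynthetic enzymes.

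In the M lines 6 of 6 epithelial markers were called lower, beside 14.5% of all genes, and 7 of 7 mesenchymal markers higher, beside 7.34%. Their median log2 changes were -7.45 and 4.55. The marker lists were chosen with earlier results of these data known, so they are no independent check of the line labels. Summed signals of tested leukocyte markers were 212.2 to 268.5 in the M lines against 173.2 in E, with 0 of 5 called by limma and 1 at an unadjusted p under 0.05. Those of endothelial markers were 73.75 to 119 against 58.25 in E, with 0 of 5 called and 1 at an unadjusted p under 0.05, and those of adipocyte markers 59.25 to 361.4 against 117.8 in E, with 0 of 3 called and 3 at an unadjusted p under 0.05. Arrays of the same line correlated at 0.992 to 0.993 and arrays of different lines at 0.836 to 0.971. Signal levels were not on a common scale: the geometric mean of 9 hybridization controls was highest on E replicate 1, at 1648, and lowest on M4 replicate 1, at 1067. Because cells are measured in bulk, fewer cells of a type and less RNA per cell cannot be told apart.

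The first comparison asked which transporter genes differed between the relapsed mesenchymal lines and the epithelial line from which they came. Values are probe set signals as deposited, and changes are differences of mean log2(signal + 32), positive where the M lines are higher than E. A gene was called, and is said to have risen or fallen, at 2-fold or more with a limma p, adjusted over the 14840 genes, under 0.05. In the contrast of E with the average over the 4 M lines, called the mean contrast here, 9 of 45 members were called (20%), beside 21.8% of all genes tested. Slc43a3, Slc7a2, Slc38a1 and Slc36a4 rose, which is 8.89% of members beside 7.34% of all genes. Slc1a1, Slc6a14, Slc7a5, Slc7a7 and Slc38a10 fell, which is 11.1% of members beside 14.5% of all genes. The other 36 members had changes between -0.76 and 0.97. The median change was 0.05 over the members and -0.21 over all genes, and other scalings of the arrays moved the median of all genes to 0.04 by quantile normalization, 0.11 by median centring and 0.0002 by the hybridization controls. Under these scalings the split of 4 risen and 5 fallen members became 9 and 4 by quantile normalization, 11 and 4 by median centring, and 9 and 4 by the controls. All genes shifted in the same direction. Their split of 1089 risen and 2148 fallen became 1425 and 1304, 1480 and 1385, and 1332 and 1454 in the same order. Slc1a5, Slc6a9, Slc36a1, Slc38a6 and Slc6a2 were called higher under each of these 3 scalings, and Slc38a10 was not called under any of them. The sign of the change differed between scalings for 13 of the 45 members, each of them uncalled.

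**Figure D1:**
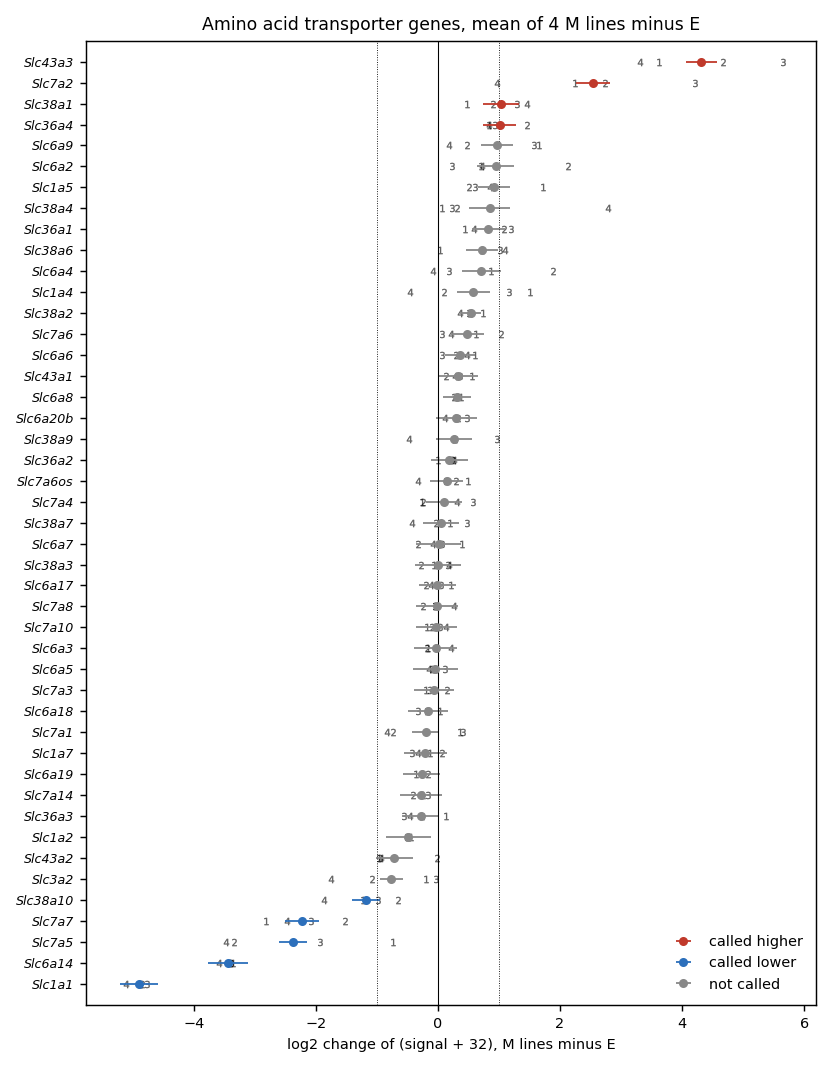
Log2 change of (signal + 32) for the 45 members, in the mean contrast of the 4 M lines with E, with 95% intervals as bars and the digits 1 to 4 marking the change of each M line. Red and blue points are called higher and lower; dotted lines mark a 2-fold change. Slc43a3 at 4.31 and Slc1a1 at -4.90 stand at the ends, and for Slc7a5 the mark of M1 lies far to the right of those of M2 and M4.

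Among the glutamate and neutral amino acid carriers of SLC1, 1 of 5 tested members fell and the other 4 were not called. Slc1a1 encodes EAAC1, which takes up glutamate, aspartate and cysteine with sodium. Its signals were 1297.3 and 1149.3 in E, 13.2 and 7.8 in M1, 4.5 and 20.2 in M2, 6.1 and 23.3 in M3, and 8.7 and 0.4 in M4. All M arrays lay at or near the level of the lowest probe sets, the 40th percentile being 14.1 to 21.3, and no M array came near E. The log2 change was -4.90 with a standard error (SE) of 0.16 (limma adjusted p = 5.69e-31), and the other 2 probe sets of the gene gave -4.32 and -4.39. It fell in each of the 4 lines, with changes of -5.11 to -4.77.

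Slc1a5 encodes ASCT2, an exchanger of glutamine, alanine, serine and cysteine. Its signals were 204.6 and 155 in E, 702 and 625 in M1, 282.7 and 248.9 in M2, 289.1 and 284 in M3, and 361 and 332.3 in M4. Every M array was above both E arrays, and the M1 arrays were the highest. The mean change of 0.92 (95% interval 0.65 to 1.18) was below the 2-fold limit, while M1 alone was called at 1.72. The second probe set of the gene, at signals of 1.3 to 33.1, gave -0.41 and was not called, and the mean of both gave 0.25. Slc1a4 encodes the related exchanger ASCT1. Its signals were 122.2 and 111.4 in E, 392.2 and 389.9 in M1, 134.2 and 121.9 in M2, 314.4 and 288.2 in M3, and 68.9 and 83.7 in M4. M1 and M3 lay above E, M2 near it and M4 below it, so that the mean change of 0.58 (SE 0.13) describes no single line.

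Of the heavy chain and its light chains, 2 of 6 tested members fell and the other 4 were not called. Slc7a5 encodes LAT1, the light chain that imports leucine, tryptophan and other large neutral amino acids. Its signals were 4717.5 and 4453.4 in E, 2774.2 and 2707.5 in M1, 501.8 and 358.8 in M2, 1135.5 and 1214.4 in M3, and 377.5 and 388.2 in M4. All M arrays were below E, but the M1 arrays kept more than the others. The mean change was -2.37 (SE 0.11, limma adjusted p = 1.03e-23), made of an uncalled -0.74 in M1 and of called changes of -3.34 in M2, -1.94 in M3 and -3.48 in M4. Fitted to the 5 line means in place of the arrays, its adjusted p was 0.21, and Slc38a1, Slc36a4, Slc38a10 and Slc7a2, described next, were not called either, at limma adjusted p-values of 0.16 to 0.19.

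Slc3a2 encodes the heavy chain CD98, without which Slc7a5 does not reach the surface. Its signals were 5254.3 and 4600.9 in E, 4174.9 and 4444.3 in M1, 2528.5 and 2083.5 in M2, 4820.4 and 4829.4 in M3, and 1413.9 and 1469.6 in M4. M3 overlapped E, M1 was just below it, and M2 and M4 were clearly lower. The mean change of -0.76 (95% interval -0.95 to -0.58) was not called, whereas M2 at -1.09 and M4 at -1.75 were called, and without M3 the mean change became -1.01 and was called.

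Slc7a7 encodes y+LAT1, which exports arginine and lysine in exchange for neutral amino acids. Its signals were 750.8 and 700.4 in E, 94.9 and 58.9 in M1, 245.2 and 215 in M2, 153.5 and 142 in M3, and 105.6 and 102.4 in M4. Every M array was below E in each line, with M2 the highest and M1 the lowest of the M lines. The change was -2.23 (SE 0.14, limma adjusted p = 1.03e-19), and the second probe set gave -2.13. Slc7a6, the related y+LAT2, was chosen for mention after its values were seen: by its brightest probe set it was called in M2 alone, at 1.04. That probe set changed by only 0.06 between E and M3. The second probe set did not set M2 apart in this way. Its line means were 501 to 567.4 for M1, M2 and M3, beside 324.6 for M4 and 238.2 for E. Its mean change was 0.88, not called, beside 0.48 for the brightest. Slc7a8, which encodes the light chain LAT2, had signals of 11.4 and 8.8 in E and between 2.2 and 20.6 elsewhere, with a change of -0.02 (95% interval -0.35 to 0.32). Its values lay near the percentile used as the filter and their order carries no information.

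Of the cationic amino acid transporters, 1 of 5 tested members rose and the other 4 were not called. Slc7a2 encodes CAT2, an arginine and lysine carrier best known from macrophages, where it feeds nitric oxide synthesis. Its signals were 2.1 and 9.9 in E, 149.3 and 144.8 in M1, 205.1 and 237.1 in M2, 610.4 and 722.3 in M3, and 37.8 and 46.1 in M4. All M arrays were above E, with M3 the highest and M4 the lowest. The change was 2.54 (SE 0.14, limma adjusted p = 7.39e-22), with 4.20 in M3 and 0.97, not called, in M4. Of the other 3 probe sets of the gene, 1 was called at 1.23 and the others gave 0.75 and 0.37. Its size depended on the pseudocount, being 3.79 with a pseudocount of 8 and 1.33 with the highest pseudocount tried, and it was 1.59 with values below 64 set to 64 and 1.22 with the mean of its probe sets. Of the 5 leukocyte markers tested beside it, none called by limma and 1 at an unadjusted p under 0.05, the macrophage marker Cd68 was above E on every M array, with a mean of 56.95 in E and line means of 86.15 to 133.4 in the M lines (log2 change 0.66, limma adjusted p = 4.05e-05, below 2-fold). Csf1r, another macrophage marker, had line means of 75 to 96.8 in the 5 lines, and Ptprc, which encodes the leukocyte antigen CD45, of 5.1 to 15.1. The part of these markers in the change of Slc7a2 was not tested.

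Slc7a1 encodes CAT1, the widely expressed arginine importer. Its signals were 2247.1 and 2031.9 in E, 2773 and 2699.9 in M1, 1448.7 and 1104.6 in M2, 2865.9 and 2813.8 in M3, and 1060 and 1319.5 in M4. M1 and M3 were above E, and M2 and M4 below it. The mean change was -0.21 (95% interval -0.42 to 0.01), and it turned to 0.10 to 0.11 under the 3 other scalings.

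In the SLC43 family of facilitated transporters, 1 of 3 tested members rose. Slc43a3 is grouped with the amino acid transporters by sequence but is known from human cells as a purine nucleobase transporter. Its signals were 19.9 and 20.4 in E, 649.1 and 575.8 in M1, 1474.8 and 1127.7 in M2, 2669.7 and 2529 in M3, and 502.9 and 463.7 in M4. Each M line was far above E, and the M lines were themselves ordered without overlap from M3 down to M4. The change was 4.31 (SE 0.13, limma adjusted p = 1.25e-32), called in each line at 3.30 to 5.66, and it was the only member called higher in all 4 lines. Slc43a1, which encodes the branched-chain amino acid transporter LAT3, had signals of 8.7 and 15.1 in E and between 15.1 and 33.6 elsewhere, with an uncalled change of 0.33 (95% interval 0.01 to 0.65).

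Among the sodium-coupled SLC38 transporters, 1 of 8 tested members rose and 1 fell. Slc38a1 encodes SNAT1, an importer of glutamine and alanine. Its signals were 34.7 and 33.7 in E, 66.3 and 54.1 in M1, 118.9 and 69.8 in M2, 121.7 and 138.5 in M3, and 148 and 149.8 in M4. All M arrays were above E. The change was 1.03 (SE 0.14, limma adjusted p = 2.04e-08), just past the limit, and it was not called without M2 replicate 1, without M3 or without M4, at 0.96, 0.94 and 0.89. With the highest pseudocount it was 0.53, with values below 64 set to 64 it was 0.69, and with the mean of its probe sets 0.95, none of these called. The second probe set gave 0.87.

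Slc38a2 encodes SNAT2, which adapts to amino acid supply in many cell types. Its signals were 3611.6 and 3318.3 in E, 5881 and 5747.6 in M1, 5729.6 and 4341.3 in M2, 4964.2 and 4913.6 in M3, and 4120.4 and 4842.4 in M4. By this brightest probe set every M array was above both E arrays, yet the change of 0.53 (95% interval 0.36 to 0.71) was below 2-fold. The other kept probe sets of Slc38a2 gave 0.18 and 0.12, not called, and in both some M arrays lay between the E arrays. Slc38a10 had signals of 3150.1 and 2589.3 in E, 1274.5 and 1125.2 in M1, 2112.5 and 1543 in M2, 1457.3 and 1402.4 in M3, and 751.8 and 758.1 in M4. Every M array was below E, with M4 the lowest. The change was -1.19 (SE 0.11, limma adjusted p = 6.38e-13). It was -0.87 and not called under each of the 3 other scalings, and -0.96 without M4. Of the other kept probe sets of Slc38a10, those at -1.33, -1.20 and -1.10 were called, and those at -0.63 and -0.61 were not.

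Of the proton-coupled SLC36 family, 1 of 4 tested members rose. Slc36a4 encodes PAT4, an amino acid carrier of this family. Its signals were 143.7 and 113.4 in E, 255 and 248.1 in M1, 451.4 and 364.7 in M2, 249.5 and 299.1 in M3, and 251.4 and 252.4 in M4. All M arrays were above E, and M2 was the highest. The change was 1.01 (SE 0.13, limma adjusted p = 5.31e-09), and it lay below the limit without E replicate 2 at 0.87, without M2 replicate 1 at 0.98, without M3 replicate 2 at 0.98 and without M2 at 0.86. With the highest pseudocount it was 0.71 and not called.

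In the SLC6 family, 1 of 13 tested members fell and the other 12 were not called. Slc6a14 encodes ATB0,+, which concentrates nearly all neutral and cationic amino acids with sodium and chloride and is found in epithelia. Its signals were 420 and 339.8 in E, 15.6 and 1.3 in M1, 1 and 12.8 in M2, 5.7 and 8 in M3, and 3.4 and 0.7 in M4. The M arrays were all below the percentile used as the filter. Slc6a14 thus passed it only through the E arrays, and its test is no independent support for its level in E. The change of Slc6a14 was -3.44 (SE 0.16, limma adjusted p = 4.19e-24), called in each line, and the second probe set gave -3.38. With the highest pseudocount it was -1.92. The epithelial markers fell in the same lines; their part in the fall of Slc6a14 and Slc1a1 was not tested.

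**Figure D2:**
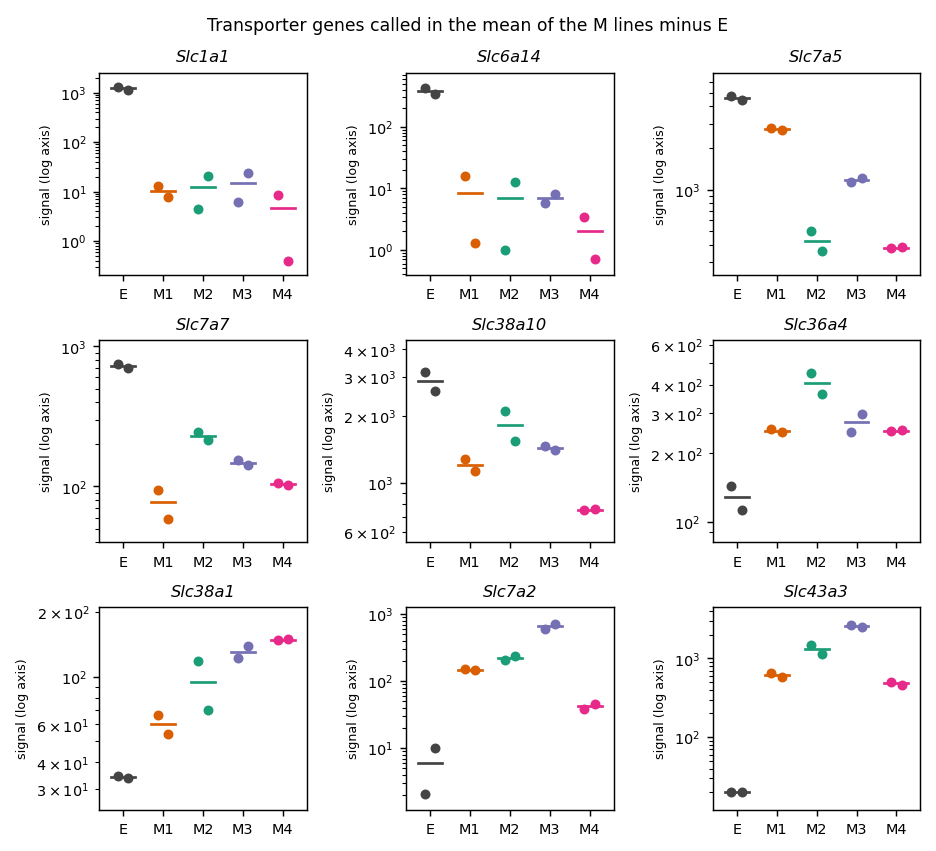
Signal on each of the 10 arrays (log axes that differ between panels) for the 9 members called in the mean contrast, with a bar at the mean of the 2 arrays of a line. In every panel the 8 M arrays lie on 1 side of both E arrays, from 463.7 to 2669.7 against about 20 for Slc43a3 and from 0.4 to 23.3 against 1149.3 and 1297.3 for Slc1a1.

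Line by line against E, 9 members were called in M1 (20%), beside 21.1% of all genes, and 12 in M2 (26.7%), beside 20.4%. In M3, 11 were called (24.4%), beside 27.5%, and in M4, 10 (22.2%), beside 26.8%. In M1 they split into 5 higher, beside 8.6% of all genes, and 4 lower, beside 12.5%. In M2 they were 7 higher (8.58%) and 5 lower (11.8%). In M3 they were 7 higher (7.7%) and 4 lower (19.8%), and in M4 they were 4 higher (6.65%) and 6 lower (20.1%). The 4 comparisons share the E arrays. Slc43a3 was called higher in each of them, and Slc1a1, Slc6a14 and Slc7a7 lower in each. All 8 M arrays exceeded both E arrays for 11 members (24.4%), beside 10.8% of all genes, and lay below both for 7 members (15.6%), beside 30.9% of all genes. The E arrays also had the brightest hybridization controls, whose part in these shares was not tested.

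The 16 genes by symbol that were not tested had no probe set over the percentile on 2 arrays, and their highest signal was 24.3. Of all 122 probe sets, those nearest the limit were of Slc1a3 and Slc1a2 just outside, at 0.972 and 0.993 times the percentile on their second highest array. Just inside were those of Slc6a20b and Slc7a14, at 1.081 and 1.094 times. Slc1a2 was tested all the same, by another probe set that passed, whereas Slc1a3 was not tested.

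The second comparison asked how the 4 relapsed lines differed among themselves. By the moderated F test over the M lines, with an adjusted p under 0.05 and line means at least 2-fold apart, 15 of 45 members were called (33.3%), beside 22.4% of all genes. They were Slc7a1, Slc7a2, Slc43a3, Slc1a4, Slc1a5, Slc3a2, Slc7a5, Slc7a7, Slc6a2, Slc6a4, Slc6a9, Slc38a4, Slc38a6, Slc38a9 and Slc38a10. The widest were Slc7a2, whose M line means spanned 3.24 on the log2 scale, Slc7a5 at 2.74, Slc38a4 at 2.72, Slc43a3 at 2.35, Slc1a4 at 1.97 and Slc6a4 at 1.96. The span was 1.77 for Slc7a2 and 1.36 for Slc43a3 without M3, 1.96 for Slc7a2 without M4 and 1.54 for Slc7a5 without M1, each still called. For Slc7a2 it was 2.03 with the mean of its probe sets, also called.

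Some members stood apart in 1 line. Slc38a4 encodes SNAT4, a neutral amino acid carrier of liver and placenta. Its signals were 185.5 and 202.3 in M4 and between 0.6 and 14.3 on the other 8 arrays, so that only M4 was above the filter level. Slc38a4 thus passed the filter only through the M4 arrays, and tests that include M4 are no independent support for its level there. M4 was called against E at 2.78 (limma adjusted p = 1.9e-16). The second probe set, which also passed only through M4, was 123.3 and 117.9 there. Without M4 the range among the other M lines was 0.25. The range among all M lines, 2.72 as given above, was 4.31 with a pseudocount of 8 and 1.305 with the highest, called in both. Of the 3 adipocyte markers tested, Lpl had its highest line mean in M4, at 283.4 beside 3.75 in E and up to 13.6 in the other M lines. Fabp4 was highest in M3, at 48.7 beside 28.25 in M4, and Slc2a4 was lower in M4 than in E, at 49.8 and 99.9. Their part was not tested. Slc6a4, the serotonin transporter, had signals of 4.8 and 6.6 in E, 41.2 and 32 in M1, 122.7 and 91.7 in M2, 7.4 and 14 in M3, and 2.2 and 5 in M4. M2 was the highest and was called against E at 1.88. The range among the M lines was 0.83 with the highest pseudocount, 0.73 with values below 64 set to 64 and 0.94 without M2, and it was not called in these 3 settings. Slc6a2, the noradrenaline transporter, was chosen for mention after its values were seen: its signals were 266.9 and 164.4 in M2 and 22.3 to 66.9 on the other arrays. Its other kept probe sets were also highest in M2 but stood less apart. Their M2 means were 64.5, 32.8 and 82.65, beside 42.9, 24.1 and 59.4 in the next highest line. None was called in the mean contrast, at 0.32, 0.22 and 0.06. The endothelial marker Cdh5 was also highest in M2, at 50.35 beside 6.75 in E, and was called there at 1.09. Tek was highest in M2 too, at 19.2 and uncalled, while the other 3 endothelial markers tested were highest in other lines. Their part was not tested.

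**Figure D3:**
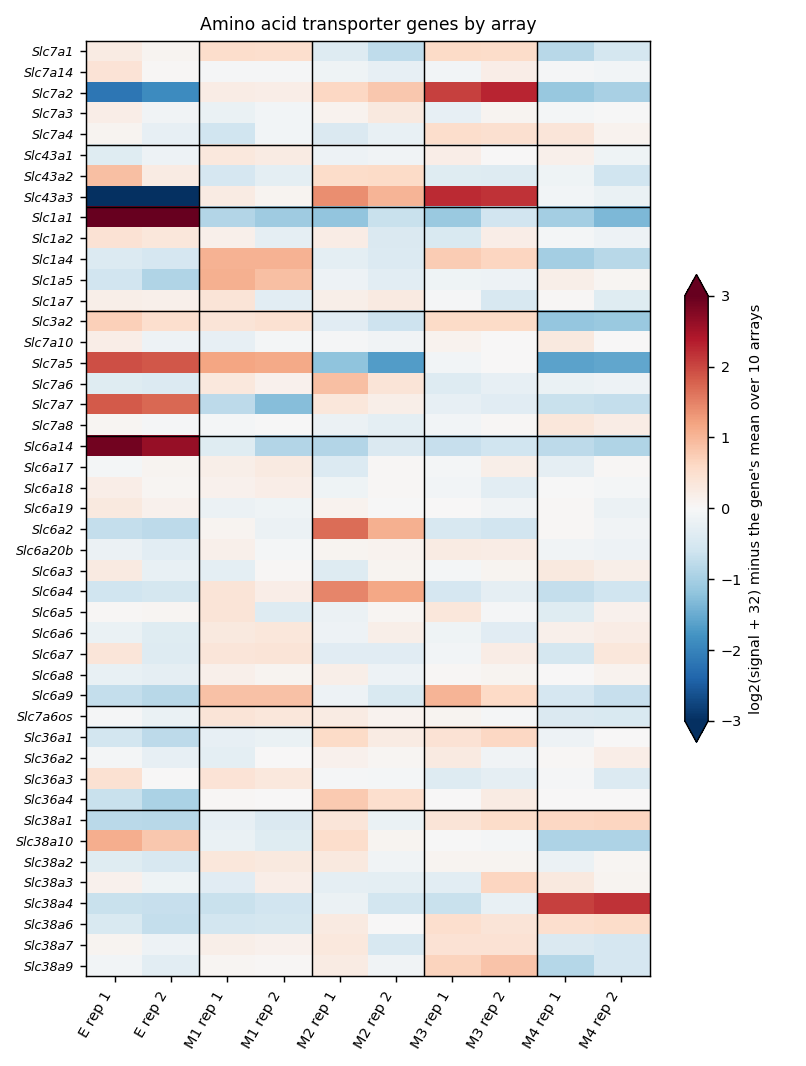
Log2(signal + 32) of each of the 45 members on each array, minus the mean of that gene over the 10 arrays, with members ordered by family and arrays by line. Red is above and blue below the mean. Slc38a4 is red in M4 alone, Slc6a2 and Slc6a4 are reddest in M2, and Slc1a4 and Slc6a9 are red in M1 and M3.

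The 6 pairwise contrasts, which share lines, showed which lines differed. Between M1 and M2, 9 members were called, 5 higher in M1 and 4 lower, beside 4.54% of all genes (1.95% higher and 2.59% lower). Between M1 and M3, 4 were called, 2 in each direction, beside 11% (8.44% and 2.55%). Between M1 and M4, 8 were called, 6 higher in M1 and 2 lower, beside 8.96% (6.83% and 2.13%). Between M2 and M3, 8 were called, 2 higher in M2 and 6 lower, beside 7.29% (6.05% and 1.24%). Between M2 and M4, 6 were called, 5 higher in M2 and 1 lower, beside 6.32% (5.28% and 1.04%). Between M3 and M4, 9 were called, 8 higher in M3 and 1 lower, beside 10.3% (5.77% and 4.56%). The shares of members called ran from 8.89% between M1 and M3 to 20% between M1 and M2 and between M3 and M4.

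Slc7a5, Slc1a4, Slc7a1 and Slc6a9 were each called higher in M1 than in M2 and M4, and higher in M3 than in M2 and M4. For Slc7a5 the M1 line exceeded M2 by 2.60 and M4 by 2.74 on the log2 scale, while M3 exceeded M4 by 1.54 and M2 minus M3 was -1.40. For Slc1a4 the M1 line exceeded M2 by 1.40 and M4 by 1.97, M3 exceeded M4 by 1.62, and M2 minus M3 was -1.06. Slc6a9, the glycine transporter GLYT1, falls outside the naming rule and was chosen after its values were seen. Its signals were 251.4 and 231.5 in E, 830.6 and 825.7 in M1, 391.5 and 308.8 in M2, 913 and 671.2 in M3, and 295.9 and 257.9 in M4. Slc3a2 was called in 3 of these 4 contrasts, the difference between M1 and M2 being 0.90. Under the 3 other scalings all these differences kept their direction, and Slc7a1 fell below 2-fold in M1 against M4 under each (0.73 to 0.96) and in M1 against M2 under the hybridization controls (0.95). The M1 arrays had hybridization controls of 1479 and 1400, beside 1067 and 1093 on the M4 arrays, and the median of all genes was 0.24 higher in M1 than in M4.

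**Figure D4:**
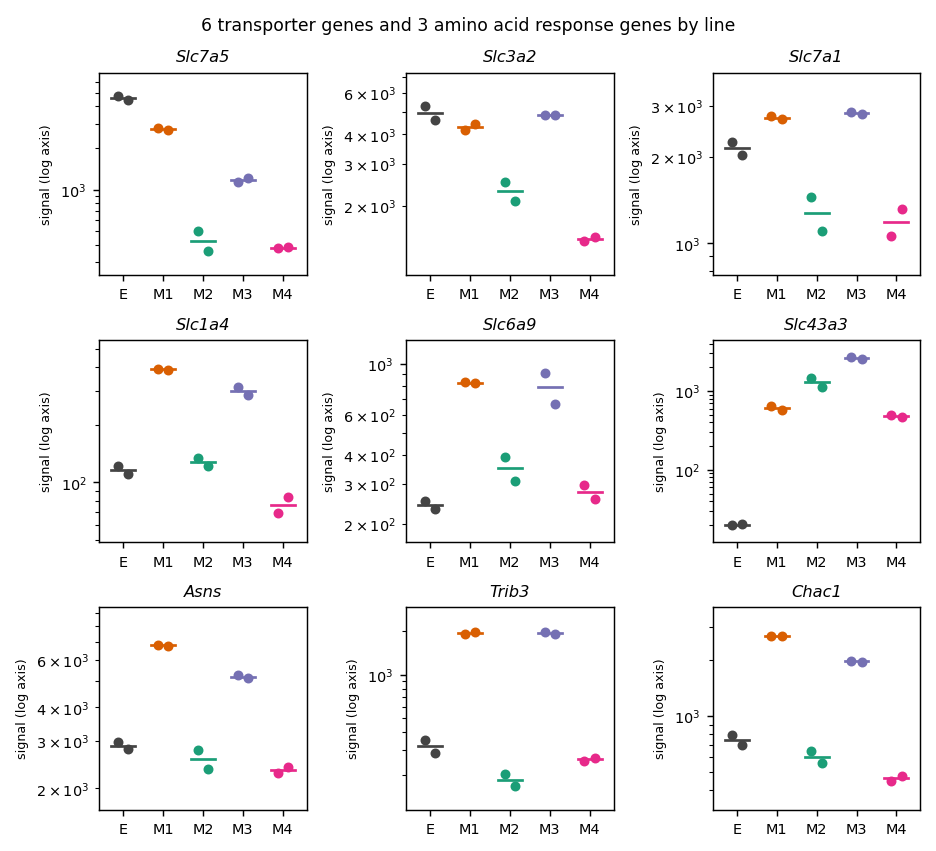
Signal on each array (log axes that differ between panels) for 6 transporter genes and, in the bottom row, Asns, Trib3 and Chac1, with a bar at the mean of each line. In the panels of Slc3a2, Slc7a1, Slc1a4, Slc6a9, Asns, Trib3 and Chac1 the M1 and M3 arrays lie above the M2 and M4 arrays; in that of Slc43a3, M3 is highest and E lowest.

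Slc7a5, Slc3a2, Slc7a1, Slc1a4 and Slc6a9 are known in other cells as genes that respond to ATF4, so the members of a list of 20 amino acid response genes were set beside them. Against E, in the mean contrast, 5 of the 20 rose and the other 15 were not called: Nupr1 at 3.12, Ddit3 at 2.21, Eif4ebp1 at 1.90, and Sesn2 and Trib3 at 1.05 and 1.02. This is 25% of the list, beside 21.8% of all genes. With the mean of its probe sets Ddit3 changed by 0.90 and was not called. Atf4 itself changed by 0.24 (SE 0.09) and Psat1, of serine synthesis, by 0.03 (SE 0.08), neither called. Atf4 was high in M1 alone, with a line mean of 7903 there, 3621 to 4685 in the other M lines and 4066 in E. Only M1 minus M4 was called for it, at 1.12, while M2 minus M3 was -0.23 and M3 minus M4 was 0.37. Psat1 was likewise highest in M1, at a mean of 9073 beside 4677 to 5616 in the other 4 lines, with no pair of M lines called. Among the M lines 16 of the 20 were called (80%), beside the 22.4% of all genes given above. Of the list, 12 were higher in M1 than in M2 (60%) and 15 higher in M1 than in M4 (75%), beside 1.95% and 6.83% of all genes. In M3, 9 were higher than in M2 (45%) and 10 higher than in M4 (50%), beside 1.24% and 5.77%. Between M2 and M4, 0 of the 20 were called by limma, with 6 at an unadjusted p under 0.05, beside 6.32% of all genes called. Between M1 and M3 there were 4 higher in M1 and 1 lower, beside 8.44% and 2.55%. The total of 5 between M1 and M3 was 1 under quantile normalization and 2 under each of the other scalings, chosen after seeing the data. The counts of the list for the other pairs are given under the deposited scaling only. Differences between M1 and M4 depended on the scaling. With the hybridization controls M1 minus M4 went from 1.56 to 1.15 for Slc3a2 and from 1.97 to 1.65 for Slc1a4. Atf4, at 1.12, lay near the 2-fold limit.

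Asns encodes asparagine synthetase, a standard readout of ATF4. Its signals were 2960.3 and 2787.9 in E, 6846.8 and 6743.8 in M1, 2775 and 2365.9 in M2, 5252.7 and 5121.5 in M3, and 2285.7 and 2391.1 in M4. M1 and M3 were above E, and M2 and M4 were below it. M1 exceeded M2 by 1.40 and M4 by 1.53, and M3 exceeded M4 by 1.14. Trib3, a pseudokinase induced by ATF4, and Chac1, which degrades glutathione, were chosen after their values were seen. Trib3 had signals of 1921 and 1993.9 in M1, 1992.1 and 1915 in M3, 202.7 and 169.5 in M2, and 250.6 and 265.5 in M4, beside 351.2 and 285.2 in E. Chac1 had signals of 2702.5 and 2689.4 in M1, 1990.7 and 1959 in M3, 645.5 and 555.3 in M2, and 444.9 and 477.9 in M4, beside 789.6 and 698.9 in E.

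Of 19 cytosolic aminoacyl-tRNA synthetases, which charge tRNAs with amino acids, Farsb alone was called in the mean contrast, at -1.03. This is 5.26% of the list, beside 21.8% of all genes. Farsb was not called under any of the 3 other scalings, at -0.76 to -0.72. Among the M lines 14 of the 19 were called (73.7%), beside 22.4% of all genes. In M1, 11 were higher than in M4 and 3 higher than in M2, beside 6.83% and 1.95% of all genes. Some of the differences from M4 lay near the 2-fold limit, with Cars and Kars at 1.01, beside 1.68 for Aars. The counts between M lines are given under the deposited scaling only. In M3, 7 were higher than in M4 and 2 higher than in M2, beside 5.77% and 1.24%. Between M1 and M3, 1 was called, beside 11%, and between M2 and M4, 1 was called, beside 6.32%.

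**Figure D5:**
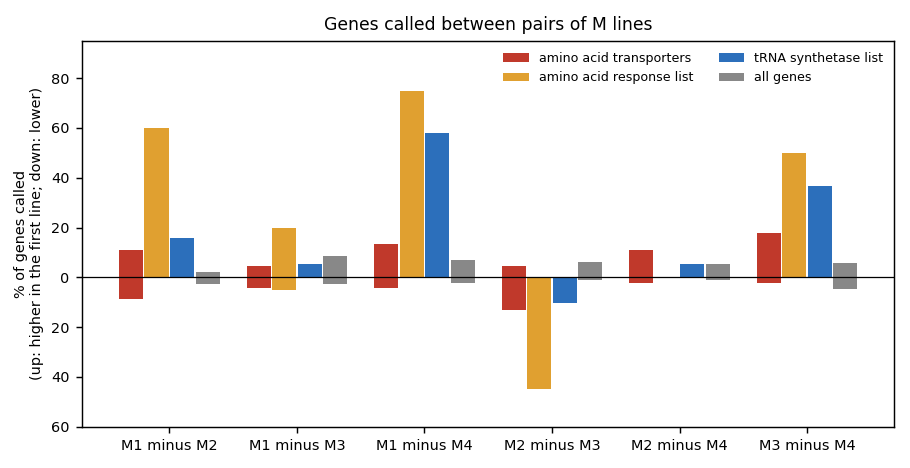
Percent of genes called in each pairwise contrast of M lines, upward for higher and downward for lower in the line named first, for the 45 members, the 20 amino acid response genes, the 19 tRNA synthetases and all 14840 genes. The amino acid response list reaches 75% upward in M1 minus M4 and 45% downward in M2 minus M3, and is at 0 in M2 minus M4.

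ATF4 binds, with C/EBP partners, to an element spelled TGATGNAA, and for this reason promoters of Slc1a4 and Slc3a2, which were higher in M1 and M3 than in M4, are shown with that of Asns. Against E these genes differed: in M1 Asns changed by 1.23, Slc1a4 by 1.51 and Slc3a2 by -0.19, the last not called. Whether they move together was not tested. The windows are from RefSeq on build GRCm38.p6, from 250 bases before to 50 bases after a transcript start, on the gene's strand. Each window was searched for TGATGNAA on both strands, and capitals mark a match. The window of Slc1a4 is chr11:20332664-20332963 on the minus strand, that of Slc3a2 chr19:8713848-8714147 on the minus strand, that of Slc7a7 chr14:54417895-54418194 on the minus strand, and that of Asns chr6:7693160-7693459 on the minus strand. Slc7a7 is shown because it is the other member with a match, although its signals were ordered differently among the lines.
Slc1a4: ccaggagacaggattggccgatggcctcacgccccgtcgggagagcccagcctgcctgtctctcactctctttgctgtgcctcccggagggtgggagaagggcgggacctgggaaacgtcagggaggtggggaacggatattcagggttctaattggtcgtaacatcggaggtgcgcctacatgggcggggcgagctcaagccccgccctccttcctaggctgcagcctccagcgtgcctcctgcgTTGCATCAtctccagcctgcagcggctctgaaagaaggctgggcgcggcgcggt
Slc3a2: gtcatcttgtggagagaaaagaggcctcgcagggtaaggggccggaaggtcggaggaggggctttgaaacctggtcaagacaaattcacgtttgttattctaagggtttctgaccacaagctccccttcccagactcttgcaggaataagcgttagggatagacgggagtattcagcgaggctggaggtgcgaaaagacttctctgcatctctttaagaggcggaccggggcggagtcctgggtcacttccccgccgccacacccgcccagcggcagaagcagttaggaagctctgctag
Slc7a7: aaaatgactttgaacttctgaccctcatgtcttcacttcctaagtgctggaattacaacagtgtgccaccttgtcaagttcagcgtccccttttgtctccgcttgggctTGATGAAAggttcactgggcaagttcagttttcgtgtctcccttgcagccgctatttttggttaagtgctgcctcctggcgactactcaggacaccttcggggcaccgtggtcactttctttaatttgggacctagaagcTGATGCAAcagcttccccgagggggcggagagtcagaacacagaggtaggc
Asns: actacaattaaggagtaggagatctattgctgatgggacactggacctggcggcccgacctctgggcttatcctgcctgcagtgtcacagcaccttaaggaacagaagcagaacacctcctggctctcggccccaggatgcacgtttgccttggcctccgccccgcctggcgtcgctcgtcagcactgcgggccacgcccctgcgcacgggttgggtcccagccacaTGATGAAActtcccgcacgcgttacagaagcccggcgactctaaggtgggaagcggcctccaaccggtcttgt
Slc1a4 held 1 match, on the opposite strand 4 bases before the start. Slc7a7 held 2 matches in this window, 141 bases and 1 base before the start, and Asns 1 match 23 bases before it. The letters were not found in the window of Slc3a2, nor in those of Slc7a1, Slc6a9, Slc1a1 and Slc6a14. No window was available for Slc7a5, Slc43a3 and Slc7a2, so these were not searched. Sequence beyond 50 bases after a start was not searched in any gene. Of the 45 members, 31 were matched to 44 windows, and 3 windows of 2 genes held the element (6.82%), beside 1304 of 32851 windows of all genes (3.97%). The Slc7a7 windows among them overlap and share the same TGATGCAA, so the share of windows counts that match more than once. By gene, 2 of 31 members held the element, beside 1219 of 27025 genes. In the amino acid response list 5 of 22 windows held it (22.7%), and in the tRNA synthetases 5 of 13 (38.5%). A match is a description of letters and was not tested for binding.

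Other genes of amino acid handling were read from 3 further lists. Of 18 enzymes of glutamine, arginine and branched-chain amino acids, 3 rose and 1 fell (22.2%), a share near the 21.8% of all genes. Bcat1, the cytosolic branched-chain aminotransferase, had signals of 2.9 and 7.6 in E and between 618 and 4074.6 elsewhere, with a change of 5.57 (SE 0.12, limma adjusted p = 1.54e-37). Glul, glutamine synthetase, had signals of 11.7 and 6 in E and between 551.4 and 1365.1 elsewhere, with a change of 4.57 (SE 0.13, limma adjusted p = 2.06e-33). For both, every M array was far above E. The change was 3.51 for Bcat1 with the mean of its probe sets and 2.96 for Glul with the highest pseudocount. Gpt2, the mitochondrial alanine aminotransferase, rose by 1.97, with signals of 1361.9 to 1588.5 in M1 and M3 and of 191.7 to 315.3 in M2 and M4, beside 144.9 and 122.7 in E. Bckdhb, a subunit of the branched-chain keto acid dehydrogenase and chosen after its value was seen, fell by 1.48.

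Of 23 genes that carry amino acid signals to mTORC1, 4 rose and 2 fell (26.1%), beside the same 21.8%. Flcn, which encodes folliculin, rose by 1.37 (0.87 and not called with the mean of its probe sets), Fnip1, its partner, by 1.29, and Lamtor3, of the lysosomal Ragulator scaffold, by 1.27, the last 2 chosen after their values were seen. The fourth was Sesn2, given above. Sesn3, a stress-induced sestrin, and Nprl2, a GATOR1 subunit that restrains mTORC1, fell by 1.31 and 1.29. Under quantile normalization and under median centring neither Sesn3 nor Nprl2 was called, at -0.997 to -0.87.

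Of 5 other amino acid and peptide transporters tested, 1 fell and 1 rose (40%), beside 21.8% of all genes, a share that rests on 5 genes. Slc15a2, the high-affinity peptide transporter PEPT2, had signals of 3631.1 and 3332.5 in E and between 18.1 and 38.9 elsewhere, and its change was -5.97 (SE 0.14, limma adjusted p = 7.01e-37). Slc15a3, an endolysosomal peptide and histidine transporter, had signals of 3.4 and 2.6 in E, 3.1 and 6.6 in M1, 137.9 and 113.6 in M2, 103.8 and 90.9 in M3, and 309.5 and 346.6 in M4. M1 overlapped E, and the other 3 M lines were above it. The mean change was 1.87 (SE 0.14, limma adjusted p = 1.62e-16), and M1 minus M4 was -3.29. The mean change was 3.00 with a pseudocount of 8, and it was not called with the highest pseudocount, at 0.89, or with values below 64 set to 64, at 0.98.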

How the data were processed

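Total RNA of 10 cell line samples was biotin-labelled and hybridized, per the labels' protocols. The deposited values are probe set signals, an intensity on a linear scale; GCOS 1.3 is named per the submitters' processing notes, with no signal algorithm, scaling target or background step (not given in the sources used here). Symbols came from the platform annotation, with 34945 probe sets of a single symbol, 932 of several and 9160 of none, beside 64 control probe sets left out.

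The deposited scaling was kept. Signals were taken to log2(signal + 32), and probe sets above the 40th percentile of their array on at least 2 arrays were kept. Where several probe sets of a gene were kept, the brightest on average stood for it. Differences were fitted with limma 3.58.1 in R 4.3.3 (lmFit, eBayes with trend, 1 mean per line), with Benjamini-Hochberg adjustment over 14840 genes. On simulated data, 65 of 66 genes changed by 1.5 on the log2 scale were called in the mean contrast, with 0 false calls. The simulation used independent normal noise of the fitted size and the same shift in every M line. It held no differences among the M lines and no differences in array scale, so it does not bear on either. Same-numbered arrays of 2 lines did not deviate together (correlations -0.06 to 0.05 over 10 pairs of lines), so the numbers were not used as pairs.

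The members and gene lists were chosen with earlier results of these data known. Named genes were 10 transporters whatever their result, every other called member, the 6 called members that differed most among the M lines, Atf4, Asns, Psat1, and up to 3 called genes of each further list. The lists were amino acid response genes, cytosolic tRNA synthetases, mTORC1 sensing, amino acid enzymes, other transporters, and markers of epithelial, mesenchymal, leukocyte, endothelial and adipocyte cells. Alternatives changed the scaling, pseudocount, filter, probe set choice, arrays and lines used, and the unit of replication. The number of arrays limits the precision.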

Additional observations from a re-analysis of the deposited data

Results flagged for a closer look

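The changes from E differed among the 4 M lines, by the moderated F test of the difference itself, for 15 members. The gap between the highest and the lowest line on the log2 scale was 3.24 for Slc7a2, 2.74 for Slc7a5, 2.72 for Slc38a4 and 2.35 for Slc43a3. It was 1.97 for Slc1a4, 1.96 for Slc6a4, 1.90 for Slc6a2, 1.72 for Slc3a2, 1.48 for Slc6a9 and 1.44 for Slc38a9. It was 1.28 for Slc7a7, 1.24 for Slc7a1, 1.22 for Slc1a5, 1.22 for Slc38a10 and 1.07 for Slc38a6. A line has 2 arrays, too few for a test of single arrays.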

How the results depend on the processing

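Other scalings raised the number of members called higher. In the mean contrast it went from 4 to 9 under quantile normalization, 11 under median centring (15 members in all, from 9) and 9 under the hybridization controls. Over all 14840 genes the number called higher in this contrast rose too, from 1089 to 1425, 1480 and 1332. In M4 the number of members called higher went from 4 to 10, 9 and 9, with 16 members in all under quantile normalization. In M3 it went from 7 to 11 under quantile normalization. With a pseudocount of 8 it was 8 in the mean contrast and 8 in M1. With the highest pseudocount it was 2 in the mean contrast, 4 in M2, 3 in M3 (7 members in all) and 2 in M4. Over all genes, 1408 were called higher in the mean contrast with a pseudocount of 8 and 683 with the highest. With the mean of a gene's probe sets 3 members were called higher in M1. Counts over all genes for single lines under these settings are not given here. Fitted to 5 line means, the mean contrast called fewer members, fewer pathway genes and fewer of all genes than the fit to arrays. This fit has 1 value for E and fewer degrees of freedom. Leaving out 1 array at a time gave 2 (without M2 replicate 1) to 6 members higher in the mean contrast and 7 to 11 members in all. The counts of response genes between M1 and M3, added after the data were seen, went from 5 to 1 under quantile normalization, 2 under median centring and 2 under the hybridization controls. The causes were not tested.

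Of the 39 results for named genes, none changed direction while called in any alternative. Slc1a1, Slc6a14, Slc7a7 and Slc43a3 were called in all 25 alternatives. The replicate block left all 39 results on their side of the threshold, and 9 members were called with it. The same-numbered arrays share only a number. Signals under about the 40th percentile of an array (14.1 to 21.3) carry no order.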
